A study of Mus musculus with 8 samples.

Results

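The lines Ind-8 and tI-3, in which p53 had been restored, were compared as a pair with the p53-null line Con-3, by mRNA level on Affymetrix mouse arrays. All 8 of the 8 arrays of the series entered, assigned by the cell line in their labels: 3 of Ind-8, 2 of tI-3 and 3 of Con-3, so 5 restored arrays stood against 3 null arrays. Ind-8 and tI-3 had equal weight whatever their number of arrays. The question was which transcripts move the same way in both restored lines, although Ind-8 was reported to renew asymmetrically and tI-3 symmetrically once p53 is on.

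All lines are p53-null mouse fetal fibroblasts, grown with puromycin (5 µg/ml) and kept in 65 µM ZnCl2 for 48 hours before harvest. Ind-8 carries a wild-type mouse p53 cDNA under a modified human metallothionein promoter that zinc turns on. The second restored line, tI-3, derives from Ind-8, adds a constitutive IMPDH II transgene and was grown with G418 besides. Con-3 received the promoter vector without p53. The labels name it as the line from which Ind-8 was made, whereas the paper describes the control lines as made alongside the p53 lines by transfection. Each line is 1 clone and tI-3 was derived from Ind-8, so restored p53 and descent from the Ind-8 clone cannot be told apart in any difference that both lines share. The replicates are repeat cultures of a clone, and the p-values below measure the spread between these cultures only.

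The p53 protein is a transcription factor that binds paired half-sites in DNA and switches on genes that stop the cell cycle, repair DNA, alter metabolism or start cell death. Its product p21, encoded by Cdkn1a, inhibits cyclin-dependent kinases and so keeps the RB family bound to E2F and to the DREAM complex, which silences genes of DNA replication and mitosis through E2F and CHR elements in their promoters. Mdm2 closes the loop, since p53 induces it and it marks p53 for degradation.

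The genes that check the labels gave a mixed picture. Trp53 stood at log2 levels of 5.21, 5.29 and 5.27 in Con-3, 5.68, 5.87 and 5.80 in Ind-8, and 5.60 and 5.69 in tI-3. Every restored array lay above every null array, by 0.46 ± 0.08 (SE) with equal weight per line (adjusted p = 0.0020). The gap was small for a gene described as absent in Con-3, and all 8 values lay above 4.29, the level that bounds the dimmest 25% of profiles. Its call ended without tI-3 replicate 2 (0.44), with the hybridization controls described below as a block (0.46) and within their levels (0.46). Whether the Trp53 probes read the transgene or a residual transcript of the null allele was not tested. Impdh2, the enzyme of guanine nucleotide synthesis whose cDNA was added to tI-3, read 12.51, 12.56 and 12.53 in Con-3, 12.16, 12.19 and 12.22 in Ind-8, and 12.34 and 12.38 in tI-3. No excess over Con-3 appeared in tI-3, where its difference was -0.17 (adjusted p = 0.18), and the level in Ind-8 differed by -0.34 (adjusted p = 0.011). Whether these probes read the transgene was not tested. Impdh1, the other isoform, differed by 0.09 ± 0.09. The metallothionein genes, which answer to zinc, read high in all lines: Mt1 lay between 13.47 and 13.95, with a difference of 0.02 ± 0.09, and Mt2 differed by -0.25 ± 0.09 (adjusted p = 0.063).

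Levels of different probe sets are not comparable as amounts, so the markers name no cell type by rank. Of 18 fibroblast markers, 15 had means above the dim limit, as had 7 of 12 epithelial, 4 of 10 endothelial, 5 of 8 blood, 5 of 10 neural and 8 of 10 muscle markers, so that this count alone does not single out fibroblasts. The fibroblast markers were led by Vim, the intermediate filament vimentin, at 13.89. Their summed unlogged level was 5.52e+04, 5.877e+04 and 5.978e+04 in Con-3, 6.54e+04, 6.904e+04 and 6.935e+04 in Ind-8, and 5.356e+04 and 4.893e+04 in tI-3. Thy1, Lum and Fap had means under the dim limit. Of the 18, Fn1, Twist1 and Pdgfrb were higher in both restored lines (16.7%, beside 4.05% of all genes, by the calling rule given below), by 0.49, 0.45 and 0.36, and 0 were lower by limma (1 at an unadjusted p under 0.05). The rank product test called 0 in either direction. In tI-3 5 of the 18 were lower (27.8%, beside 16.5% of all genes) and 4 were higher (22.2%, beside 10.6%). Of the markers of other cell types 0 passed the limma test in both lines. At an unadjusted p under 0.05 that holds for all but 1 rise and 1 fall among the endothelial genes, and the rank product test called 0. Their members with the highest levels were Krt19 at 9.78, Eng at 6.50, Csf1r at 5.47, Stmn2 at 10.76 and Acta1 at 7.21. The summed epithelial level ran from 818.3 to 1162 in Con-3, from 1351 to 1694 in Ind-8 and from 952.9 to 957.7 in tI-3, while the neural sum ran from 1864 to 1988, from 1557 to 1951 and from 2674 to 2928 in the same order. The endothelial sum ran from 312.9 to 352.9, from 297.1 to 324.2 and from 360.3 to 383.8, the blood sum from 194.3 to 217.6, from 217.1 to 223.4 and from 241.2 to 247.7, and the muscle sum from 383.7 to 432.1, from 361.9 to 437.4 and from 366.5 to 396.4. Krt19 made up most of the epithelial sum and Stmn2 most of the neural sum, so these sums do not describe their lists. The median change of the epithelial list was -0.07 in Ind-8 and 0.21 in tI-3. That of the neural list was -0.13 and 0.10. RNA came from whole cultures, in which fewer cells of a kind and less RNA per cell cannot be told apart.

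A single array, Con-3 replicate 3, stood apart before any test. Its control probes for 18S ribosomal RNA averaged 10.6, against 5.58 to 6.46 on the other arrays. It also shared with both tI-3 arrays a higher level of the hybridization controls, 10.2 to 10.5 against 9.88 to 10.0 on the remaining 5 arrays. This level therefore splits the lines unevenly, with all Ind-8 arrays low and all tI-3 arrays high. The shared counts of profiles, and those of the lists as far as stated, are also given below with this level as a block and without Con-3 replicate 3. The lines also stood apart by the 3' minus 5' difference of the actin control probes, a sign of RNA quality. It was 0.110 to 0.135 in Con-3, 0.141 to 0.192 in Ind-8 and 0.058 to 0.070 in tI-3. The same difference for Gapdh overlapped between the lines. Its bearing on the results was not tested. Array medians lay between 6.12 and 6.19. Pearson's r across profiles was 0.994 to 0.996 within a line and 0.978 to 0.988 between lines.

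A profile is a set of deposited values that differs from all others; there were 18172, of which 16116 matched 1 gene, and 15572 genes were measured. A call in both lines required an adjusted p under 0.05 (limma, Benjamini-Hochberg) in the equal-weight contrast and in each line against Con-3, with the same sign. By that rule 685 profiles (3.77% of all) were higher and 1022 (5.62%) lower in both restored lines. The equal-weight contrast alone called 1633 (8.99%) above and 2395 (13.2%) below Con-3. Without Con-3 replicate 3 the shared counts were 491 and 789, with the hybridization level as a block 394 and 541, and within each level 339 and 418. Leaving out tI-3 replicate 1 gave 400 and 791, and leaving out tI-3 replicate 2 gave 479 and 679. More profiles were lower than higher in each of these settings, and both totals were under the 685 and 1022 of the main fit. Counts of list members given below for such settings are to be read beside these totals. The rank product test of the study's methods, re-implemented and applied to each line, called 66 profiles (0.363%) higher and 78 (0.429%) lower in both.

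With 1 profile per gene, 631 genes (4.05%) were higher and 918 (5.90%) lower in both lines. The lines share the Con-3 arrays, so these counts follow from the calling rule and measure no independent recurrence. Taken singly, Ind-8 had 1812 genes (11.6%) above and 1636 (10.5%) below Con-3, and tI-3 had 1651 (10.6%) above and 2573 (16.5%) below. The restored lines also differed widely from each other, with 2656 genes (17.1%) higher and 2278 (14.6%) lower in Ind-8 than in tI-3. A further 209 profiles passed in both lines in opposite directions, 152 of them up in Ind-8 and down in tI-3. Most shared changes were modest: the median of the 631 rises was 0.71 (0.72 in Ind-8, 0.68 in tI-3) and that of the 918 falls -0.61 (-0.54 and -0.66), beside -0.01 for all genes. Con-3 averaged under the dim limit in 30 of the rises, as the restored arrays did in 31 of the falls. Restored and null arrays did not overlap in 627 of the 631 rises and 916 of the 918 falls.

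**Figure D1:**
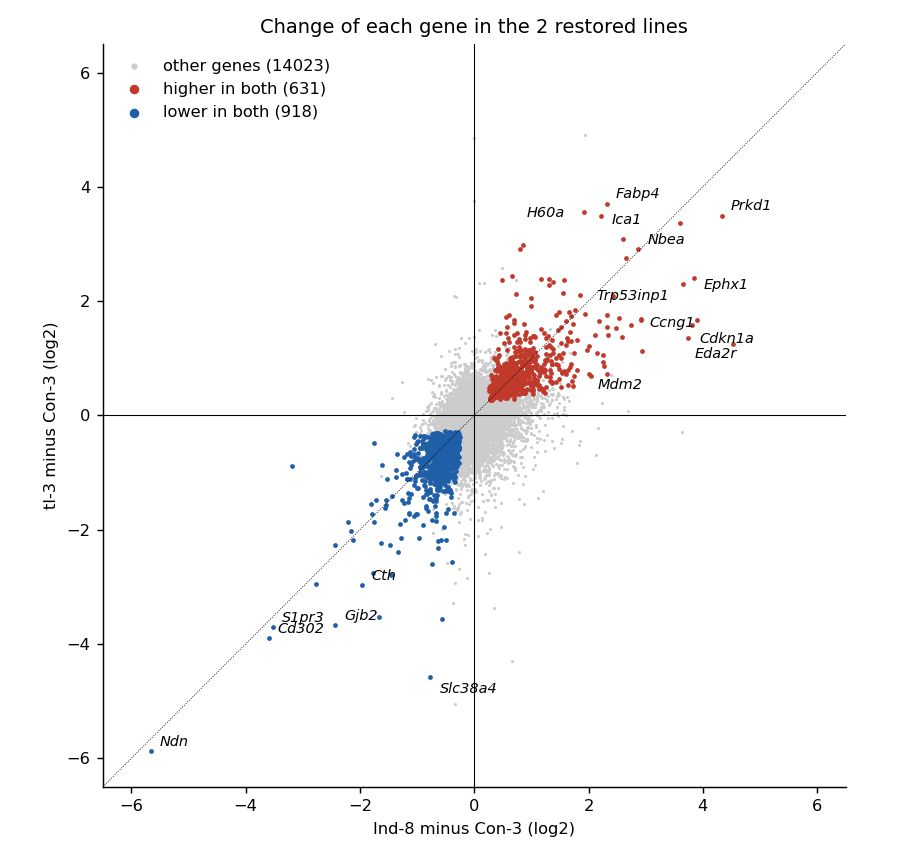
Difference from Con-3 (log2) in Ind-8 (horizontal) and in tI-3 (vertical), 1 point per gene; red points mark the 631 genes higher and blue points the 918 genes lower in both lines. The dotted diagonal marks equal change, and Cdkn1a, Eda2r, Ephx1, Mdm2 and Slc38a4 lie below it, where the level is higher in Ind-8, while H60a, Ica1 and Fabp4 lie above it.

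Of 57 measured p53 target genes, 16 were higher (28.1%, beside 4.05% of all genes) and 1 was lower in both lines, with a median equal-weight change of 0.24 (0.67 in Ind-8 and 0.14 in tI-3) beside -0.01 for all genes. With these shared calls included, 37 passed upward (64.9%, beside 11.6% of all genes) and 2 downward (3.51%, beside 10.5%) in Ind-8. In tI-3 17 passed upward (29.8%, beside 10.6%) and 8 downward (14.0%, beside 16.5%). The count of 16 was also 16 without Con-3 replicate 3, 12 with the hybridization level as a block and 11 within levels. Over all profiles the shared rises numbered 685 in the main fit and 491, 394 and 339 in these settings. The rank product test called 6 targets higher and 1 lower, beside 66 and 78 of all profiles.

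Cdkn1a, the gene of the kinase inhibitor p21, stood at 5.73, 5.81 and 6.03 in Con-3, 9.70, 9.70 and 9.59 in Ind-8, and 7.55 and 7.33 in tI-3. The groups formed separate steps with tI-3 between the others. Its equal-weight change was 2.70 ± 0.10 (adjusted p = 1.2e-07), made of 3.81 in Ind-8 and 1.59 in tI-3. Ccng1, which encodes cyclin G1, a partner of the Mdm2 loop, read 9.14, 9.20 and 9.22 in Con-3, 11.79, 12.42 and 12.07 in Ind-8, and 10.93 and 10.77 in tI-3. It rose by 2.29 ± 0.13 (adjusted p = 2.3e-06), again in 5 of 5 restored arrays and with tI-3 in the middle. Promoters of both genes are printed because, among p53 targets called higher in both lines, they rank first by number of half-sites in the promoter and then by size of change; they come from RefSeq on GRCm38.p6, with capitals on each match to the p53 half-site on either strand. Each window runs from 250 bases before to 50 after a start site; that of Cdkn1a is chr17:29090729-29091028 on the + strand, 1 of 2 RefSeq starts of the gene, and that of Ccng1 is chr11:40755237-40755536 on the - strand.
Cdkn1a: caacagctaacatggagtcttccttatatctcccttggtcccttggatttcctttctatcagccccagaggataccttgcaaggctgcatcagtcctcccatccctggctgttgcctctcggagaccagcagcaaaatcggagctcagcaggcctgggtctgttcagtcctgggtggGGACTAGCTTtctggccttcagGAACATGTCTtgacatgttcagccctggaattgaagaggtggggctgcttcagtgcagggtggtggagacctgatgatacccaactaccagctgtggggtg
Ccng1: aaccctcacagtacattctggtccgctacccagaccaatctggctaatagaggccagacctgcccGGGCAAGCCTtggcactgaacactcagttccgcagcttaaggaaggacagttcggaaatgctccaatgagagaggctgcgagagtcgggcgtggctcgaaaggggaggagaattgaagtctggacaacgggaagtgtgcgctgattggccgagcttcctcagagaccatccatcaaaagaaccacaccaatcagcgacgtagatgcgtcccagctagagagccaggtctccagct
The Cdkn1a window holds 2 half-sites, whose first bases lie at -73 and -51 from the start, and the Ccng1 window holds 1 at -185. Half-sites occurred in 17 of 67 promoters of the measured p53 targets (25.4%), in 5 of 19 of those higher in both lines (26.3%), in 46 of 689 of all genes higher in both (6.68%), in 63 of 896 of genes lower in both (7.03%) and in 1116 of 15622 promoters of all measured genes (7.14%). A match describes letters in this window and says nothing of binding.

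The feedback and arrest groups held shared rises in 2 of 9 and 3 of 10 genes, beside 4.05% of all genes. Among 9 feedback genes, Ccng1 and Mdm2 passed; Mdm2, the ubiquitin ligase that limits p53, read 9.02, 8.79 and 8.87 in Con-3, 10.79, 11.19 and 10.71 in Ind-8, and 9.67 and 9.56 in tI-3. The Mdm2 rise was 1.36 ± 0.12 (adjusted p = 3.7e-05), with no overlap between lines. Rchy1, another ligase for p53, had 0.55 in Ind-8 (adjusted p = 0.0014) and 0.18 in tI-3 (adjusted p = 0.19), a difference that itself passed the test (0.36, adjusted p = 0.017). Cdkn2a, which encodes the Mdm2 inhibitor Arf, went 0.69 up in Ind-8 and -0.81 in tI-3. Of 10 arrest genes, Cdkn1a, Psrc1 and Gtse1 passed. Psrc1, a microtubule-associated protein, rose by 1.56 ± 0.15. Gtse1, a G2 and S phase protein that restrains p53, rose by 0.58 ± 0.08 (adjusted p = 6.9e-04), a call that ended when Con-3 replicate 1, Con-3 replicate 2, tI-3 replicate 1 or tI-3 replicate 2 was left out (0.53, 0.59, 0.60 and 0.56), and with the hybridization level as a block or within levels (0.56 in both). Cdc25c, a mitotic phosphatase, was at -1.04 in Ind-8 and -0.17 in tI-3, and Gadd45a and Plk2 passed in neither line.

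Cell death genes gave 6 rises (33.3%, beside 4.05% of all genes) and 1 fall (5.56%, beside 5.90%) among 18. The rises numbered 4 with the hybridization block and 3 within levels. Trp53inp1, a nuclear cofactor of p53, read 4.57, 4.40 and 4.13 in Con-3, 7.37, 8.73 and 7.96 in Ind-8, and 6.81 and 6.53 in tI-3. Eda2r, a receptor of the tumour necrosis factor family, read 3.91, 4.08 and 4.07, then 7.60, 8.03 and 7.63, then 5.63 and 5.13. Both were near the dim limit without p53 and clear of it in each restored array. Their equal-weight rises were 2.98 ± 0.25 (adjusted p = 3.1e-05) and 2.55 ± 0.13 (adjusted p = 1.8e-06). Zmat3, an RNA-binding zinc finger protein, rose by 1.26 ± 0.11, and Fas, Phlda3 and Bax rose by 1.13, 1.12 and 0.80. The death receptor Fas and the pore former Bax thus joined with smaller steps in tI-3, 0.74 and 0.47, than in Ind-8, 1.53 and 1.12. Within hybridization levels the rises left were Trp53inp1, Eda2r and Zmat3, so the calls of Fas, Phlda3 and Bax ended there. With the hybridization block not all of these 3 calls stood. Pmaip1, which encodes the BH3-only protein Noxa, went the other way: it read 5.73, 4.49 and 4.87 in Con-3 and between 3.38 and 3.57 in all restored arrays. That fall of -1.55 ± 0.22 (adjusted p = 7.2e-04) ended under the dim limit in both lines, where Ind-8 and tI-3 differed by 0.02 with a 95% interval of -0.58 to 0.62. Siva1, Ei24 and Bid had the highest probe levels among members without a shared call. Their changes were 0.49, 0.67 and 0.36 in Ind-8 against -0.08, -0.25 and -0.19 in tI-3. Their differences between the lines passed the limma test (adjusted p = 0.0078, 2.9e-04 and 0.0024).

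Targets in redox control, metabolism and repair added 5 rises among 20, beside 4.05% of all genes, and 4 with the hybridization block or within levels. Ephx1, the microsomal epoxide hydrolase, read 7.58, 8.05 and 7.77 in Con-3, 11.24, 12.06 and 11.66 in Ind-8, and 10.37 and 10.03 in tI-3. Its rise of 3.13 ± 0.18 (adjusted p = 2.9e-06), 8.72-fold, was the largest measured among all 57 targets. Background limits the measured rises of Trp53inp1 and Eda2r, which started near the dim limit. Ak1, adenylate kinase, rose by 2.16 ± 0.08, and Cpt1c, a brain-type carnitine palmitoyltransferase homologue, by 1.57 ± 0.10. Sco2, a copper chaperone of cytochrome oxidase, and Ddb2, a sensor of ultraviolet damage, rose by 0.72 and 0.85, with 0.69 and 0.77 in Ind-8 and 0.74 and 0.94 in tI-3. The 95% interval of the difference between the lines was -0.40 to 0.29 for Sco2 and -0.62 to 0.27 for Ddb2. The Sco2 call ended with the hybridization block and without tI-3 replicate 2. The Ddb2 call ended without tI-3 replicate 1 (0.74, largest adjusted p = 0.069) and within hybridization levels (0.88). Rps27l and Ddit4 were among the members with the highest probe levels that missed a shared call. They had 0.54 and 1.45 in Ind-8 against -0.20 and 0.04 in tI-3. The limma test of the difference gave adjusted p = 5.1e-04 and 3.0e-04. Gpx1 differed by 0.08 ± 0.10.

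**Figure D2:**
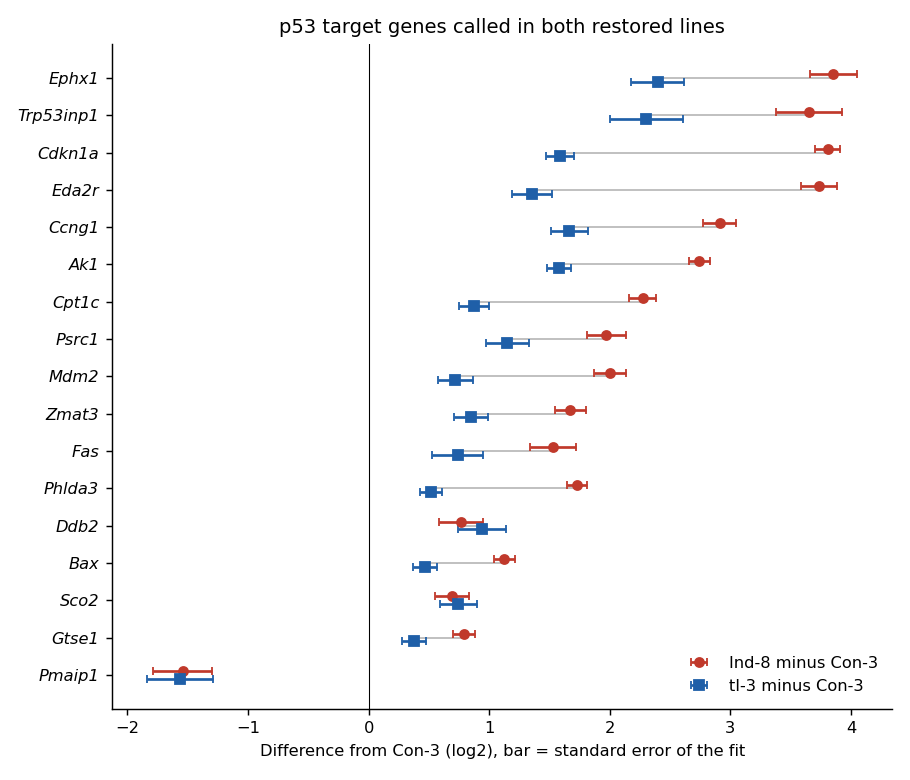
Difference from Con-3 (log2) of the 17 p53 targets called in both lines, with circles for Ind-8, squares for tI-3 and bars for the standard error of the fit. Pmaip1 is the only gene left of 0, and among the 16 rises the squares lie right of the circles for Ddb2 and Sco2 alone.

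The 12 genes with the largest rise in the line where it was smaller are shown array by array in the plot of levels, and the p53 targets Ephx1 and Trp53inp1 are among them. Prkd1, protein kinase D1, read 3.55, 3.40 and 3.67 in Con-3, 7.91, 7.74 and 7.97 in Ind-8, and 7.01 and 7.05 in tI-3. It rose by 3.92 ± 0.09 (adjusted p = 4.2e-09) from a null level under the dim limit, so that background bounds the size measured. Nbea, the vesicle trafficking protein neurobeachin, read 4.34, 4.30 and 3.78, then 7.21, 7.09 and 6.74, then 7.09 and 7.01. Here both restored lines reached a common level, with a difference of -0.03 and a 95% interval of -0.44 to 0.37. Sulf1, which trims sulfate from heparan chains, rose by 2.71 ± 0.18, and Selenop, the secreted selenium carrier, by 2.84 ± 0.32. Runx1t1, a transcriptional corepressor, rose by 2.25 ± 0.08. The null means of Runx1t1 and Nbea also lay under the dim limit, so that background bounds these sizes. Tcim and the uncharacterised 1700020L24Rik rose by 1.98 ± 0.34 and 3.48 ± 0.30 with wide spread in Con-3 (SD 0.56 and 0.85). Tcim was last inside the limit of 12, with 1.85 in its weaker line, and Parp12 was next outside with 1.78.

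Among these 12, H60a, Fabp4 and Ica1 rose further in tI-3 than in Ind-8 by the limma test of the difference. H60a, a ligand of the NKG2D receptor of natural killer cells, read 7.01, 7.25 and 6.89 in Con-3, 8.75, 9.20 and 8.95 in Ind-8, and 10.74 and 10.47 in tI-3. Its rise of 2.74 ± 0.12 (adjusted p = 6.6e-07) split into 1.92 and 3.56. Fabp4, the fatty acid carrier of adipocytes and macrophages, rose by 2.32 in Ind-8 and 3.70 in tI-3, and Ica1, a vesicle protein, by 2.22 and 3.48. Order among the lines was thus the reverse of that seen for Cdkn1a and Mdm2.

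The falls were led by Ndn, the imprinted gene of necdin, which is expressed from the paternal allele and restrains growth. It read 9.55, 9.54 and 9.50 in Con-3, 3.85, 3.87 and 3.87 in Ind-8, and 3.64 and 3.65 in tI-3. The transcript was plentiful in every null array and under the dim limit in every restored array, a change of -5.77 ± 0.07 (adjusted p = 9.7e-12) whose measured size is bounded by background. Cd302, a C-type lectin receptor, read 8.01, 8.01 and 7.95, then 4.32, 4.70 and 4.16, then 4.08 and 4.11. S1pr3, a receptor for sphingosine 1-phosphate, read 8.41, 8.48 and 8.32, then 4.85, 5.08 and 4.70, then 4.50 and 4.89. Both shared with Ndn a tight null level and a low restored level, with changes of -3.75 ± 0.11 and -3.62 ± 0.12. Egln3, a prolyl hydroxylase that acts on HIF, changed by -2.86, and the junction genes Gjb2 (connexin 26) and Cldn1 (claudin 1) by -3.06 and -2.35. The transcription factors Bhlhe22, Osr1 and Meox1 changed by -2.15, -2.03 and -2.26. Cth, cystathionine gamma-lyase, changed by -2.47, Rab3b, a GTPase of secretion, by -2.08, and Mbnl3, a splicing regulator, by -1.80. The restored means of Cd302, Egln3, Bhlhe22 and Mbnl3 also lay under the dim limit, so that background bounds their changes. Mbnl3 closed the list with -1.75 in its weaker line, and Loxl2 was next outside with -1.73.

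**Figure D3:**
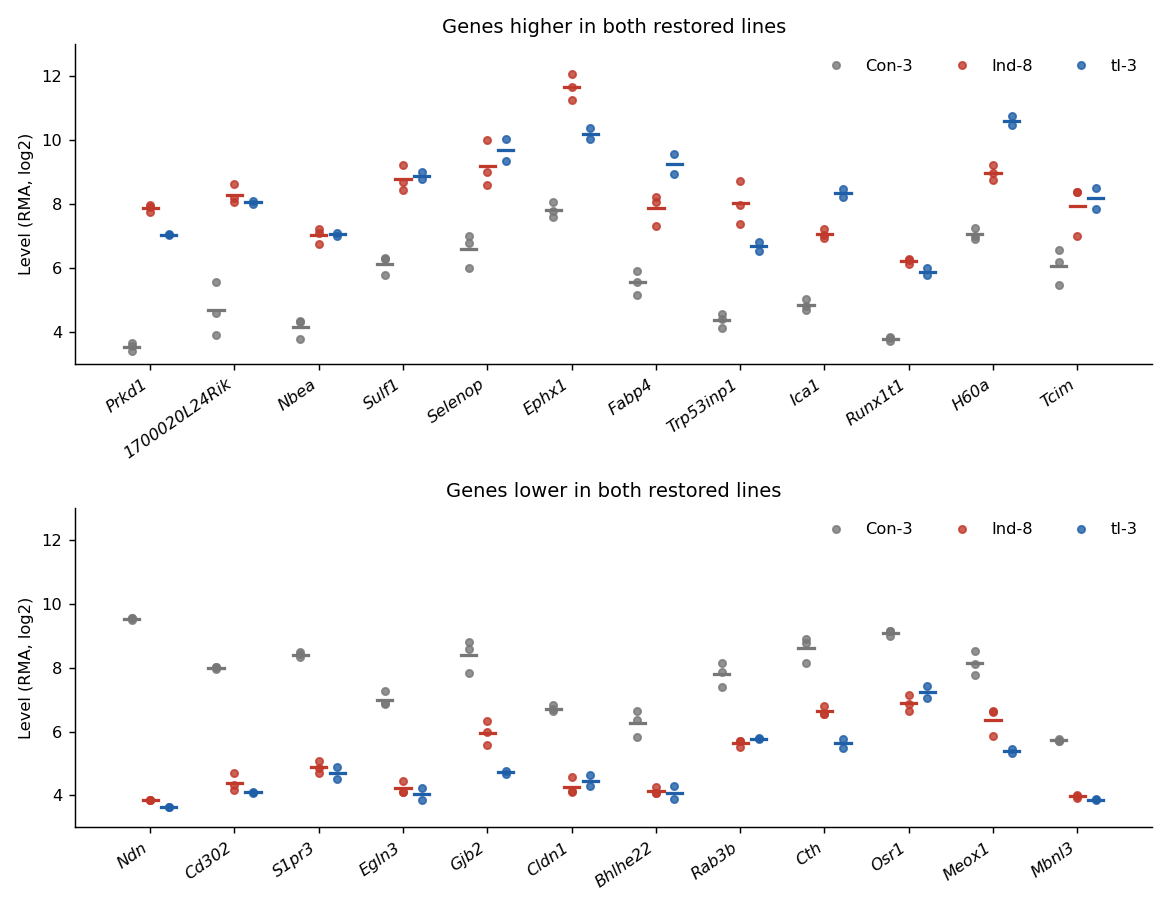
Level (RMA, log2) on each of the 8 arrays for the 12 genes with the largest shared rise and the 12 with the largest shared fall, points for arrays and bars for line means. Restored and null arrays do not overlap for any gene shown, which follows from choosing the genes by size of change. The same held for 627 of all 631 shared rises and 916 of all 918 shared falls. Ndn drops from 9.53 in Con-3 to 3.86 in Ind-8 and 3.65 in tI-3.

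Of 44 measured genes of DNA replication, 13 (29.5%, beside 5.90% of all genes) were lower in both lines by limma (18 at an unadjusted p under 0.05, 0 by the rank product test) and 0 were higher by any of these, with a median change of -0.33 (-0.43 in Ind-8, -0.18 in tI-3). The share of all genes at an unadjusted p under 0.05 was not computed. Such counts, here and for the other lists, therefore do not show whether a list stands out. In Ind-8 33 replication genes were lower (75.0%, beside 10.5% of all genes). In tI-3 14 were lower (31.8%, beside 16.5%) and 2 higher (4.55%, beside 10.6%). Cdc6, the loader of the replicative helicase, read 9.60, 9.39 and 9.36 in Con-3, 8.47, 8.45 and 8.63 in Ind-8, and 8.66 and 8.60 in tI-3. It fell by 0.88, to nearly one level in both lines (difference -0.11, 95% interval -0.36 to 0.13). Orc1, of the origin recognition complex, Rpa2, a single-strand binding protein, and Mcm5, a helicase subunit, fell as well, with changes of -0.85, -0.87 and -0.80. The shared count was 11 without Con-3 replicate 3, 7 without tI-3 replicate 2, 7 with the hybridization level as a block and 6 within levels. Over all profiles the shared falls numbered 1022 in the main fit. They numbered 789 without Con-3 replicate 3, 541 with the block and 418 within levels. Rrm2, Rpa1 and Rrm1, the members with the highest probe levels among those without a shared call, had equal-weight changes of 0.21, 0.01 and -0.31.

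Mitotic genes gave 10 falls among 56, or 17.9% beside 5.90% of all genes (16 at an unadjusted p under 0.05, 1 by the rank product test) and 0 rises by any of these, with a median of -0.31 with equal weight, -0.55 in Ind-8 and -0.06 in tI-3. In Ind-8 45 members were lower (80.4%, beside 10.5% of all genes). In tI-3 10 were lower, a share of 17.9% close to the 16.5% of all genes, and 3 were higher (5.36%, beside 10.6%). Mybl2, the MYB protein that activates late cell cycle genes, read 7.78, 7.60 and 7.58 in Con-3, 6.46, 5.70 and 6.25 in Ind-8, and 6.44 and 6.63 in tI-3. Its fall of -1.32 ± 0.15 (adjusted p = 2.2e-04) was the largest of the list. Cdca8, borealin of the chromosomal passenger complex, read 10.29, 10.47 and 10.47, then 9.40, 9.16 and 9.54, then 9.68 and 9.67, and fell by 0.89. Cdk1, the mitotic kinase, and Mad2l1, of the spindle checkpoint, fell with close values in both lines, -0.56 and -0.60 for Cdk1 and -0.73 and -0.67 for Mad2l1. Birc5, survivin, fell by 0.72, but its call ended without Con-3 replicate 1, 2 or 3 or tI-3 replicate 1 or 2, at -0.70, -0.74, -0.72, -0.76 and -0.68, with the hybridization block and within levels (-0.72 in both) and after quantile normalization (-0.66). Anln, Ube2c and Cks1b, members with high probe levels that missed a shared call, had -0.32, -0.39 and 0.09. The shared count was 8 without Con-3 replicate 3, 6 without tI-3 replicate 2, 7 with the hybridization block and 6 within levels.

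Promoters of Cdca8 and Mcm5 are printed because, among members of the mitosis and replication lists called lower in both lines, each ranks first by kinds of motif, then by number of matches and then by size of change; they are picked examples, chosen for their letters. Both promoters come from RefSeq on GRCm38.p6, Cdca8 at chr4:124936868-124937167 on the - strand and Mcm5 at chr8:75109259-75109558 on the + strand. Capitals mark the CHR (TTTGAA or TTCGAA), the CCAAT box (CCAAT) and the E2F letters (TTTCCCGC or TTTGGCGC), each searched on both strands.
Cdca8: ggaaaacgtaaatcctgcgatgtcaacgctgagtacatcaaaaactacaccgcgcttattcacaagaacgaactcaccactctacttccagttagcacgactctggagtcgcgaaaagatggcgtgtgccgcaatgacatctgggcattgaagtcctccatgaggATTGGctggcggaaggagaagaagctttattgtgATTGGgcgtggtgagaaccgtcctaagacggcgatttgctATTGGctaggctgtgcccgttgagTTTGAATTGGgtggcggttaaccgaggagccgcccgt
Mcm5: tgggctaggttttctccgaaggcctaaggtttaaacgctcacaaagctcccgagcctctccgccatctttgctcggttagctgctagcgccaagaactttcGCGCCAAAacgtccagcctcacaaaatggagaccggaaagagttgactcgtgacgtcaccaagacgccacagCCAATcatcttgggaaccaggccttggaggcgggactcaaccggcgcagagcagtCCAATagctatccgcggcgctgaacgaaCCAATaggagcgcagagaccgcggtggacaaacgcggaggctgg
Cdca8 holds 4 CCAAT boxes and 1 CHR at 14 from the start, whose last letter is shared with the CCAAT box at 19. Mcm5 holds an E2F match at -149 and 3 CCAAT boxes. CHR letters occurred in 37 of 52 promoters of the mitosis list (71.2%) and 5 of 11 of its members lower in both lines (45.5%). They occurred in 133 of 896 promoters of all genes lower in both (14.8%) and 2307 of 15622 of all measured genes (14.8%). CHR with CCAAT occurred in 33 of 52 mitosis promoters (63.5%) and 36.4% of those of members lower in both, beside 5.91% for all measured genes. E2F letters occurred in 12 of 45 promoters of the replication list (26.7%), in 4 of 13 of its members lower in both (30.8%), in 35 of 896 promoters of all genes lower in both (3.91%) and in 2.41% of those of all measured genes. CCAAT boxes were in 75% of mitosis promoters, 55.6% of replication promoters, 42.5% of those of genes lower in both and 37.2% of those of all measured genes.

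The E2F, RB and cyclin genes gave 6 falls among 30, beside 5.90% of all genes (8 at an unadjusted p under 0.05, 1 by the rank product test), 0 rises by any of these and a median of -0.21. Cdk6, a kinase that starts the cycle by phosphorylating RB, read 7.52, 7.15 and 6.81 in Con-3, 6.22, 6.54 and 6.39 in Ind-8, and 5.87 and 6.15 in tI-3. It fell by 0.96, and Skp2, the ligase subunit that degrades p27, fell by 0.74, a call lost within hybridization levels (-0.71). The E2F members E2f7 and E2f4 had -0.59 and -0.53. The E2f7 call ended without Con-3 replicate 1 or 2, Ind-8 replicate 2 or 3 or tI-3 replicate 1 or 2 (-0.43, -0.65, -0.51, -0.58, -0.56 and -0.62), and the E2f4 call without tI-3 replicate 1 (-0.47). Both calls also ended with the hybridization block and within levels (-0.54 for E2f7 and -0.53 for E2f4 in each) and after quantile normalization (-0.53 and -0.48), and that of E2f7 with arrays weighted equally (-0.58). Without Con-3 replicate 3 the list count was 6. Without tI-3 replicate 1 it was 3, with the hybridization block 2 and within levels 1. Cdk4 and Ccnd1, a kinase and a cyclin of the same step, differed by 0.04 ± 0.08 and 0.23 ± 0.08 and did not pass.

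Ribosome biogenesis genes gave 10 falls (beside 5.90% of all genes) and 1 rise (3.70%, beside 4.05%) among 27, and 0 of either by the rank product test, with medians of -0.28 with equal weight, -0.27 in Ind-8 and -0.31 in tI-3. Rrp12, which exports ribosomal subunits, read 9.10, 9.23 and 9.17 in Con-3, 8.67, 8.15 and 8.58 in Ind-8, and a mean of 8.06 ± 0.08 (SD, n = 2) in tI-3. It fell by 0.91, and Ebna1bp2, of the large subunit pathway, and Nolc1, a nucleolar phosphoprotein, had changes of -0.80 and -0.76. Myc, the transcription factor that drives the pathway, had -0.72 ± 0.13 (adjusted p = 0.0024). Its call ended without Con-3 replicate 1 or 3 or Ind-8 replicate 2 or 3, at -0.62, -0.72, -0.68 and -0.71, and with the hybridization block (-0.71). The rise was Taf1b, a subunit of the RNA polymerase I selectivity factor, at 0.49, and without tI-3 replicate 1, with the hybridization block, within levels or at an adjusted p under 0.01 the count of rises was 0. The list count was 5 without Con-3 replicate 3, 6 without Con-3 replicate 1, Ind-8 replicate 2 or tI-3 replicate 2, 3 with the hybridization block and 4 within levels. Ncl and Gnl3, genes of nucleolar proteins, differed by -0.18 and -0.17 and did not pass.

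**Figure D4:**
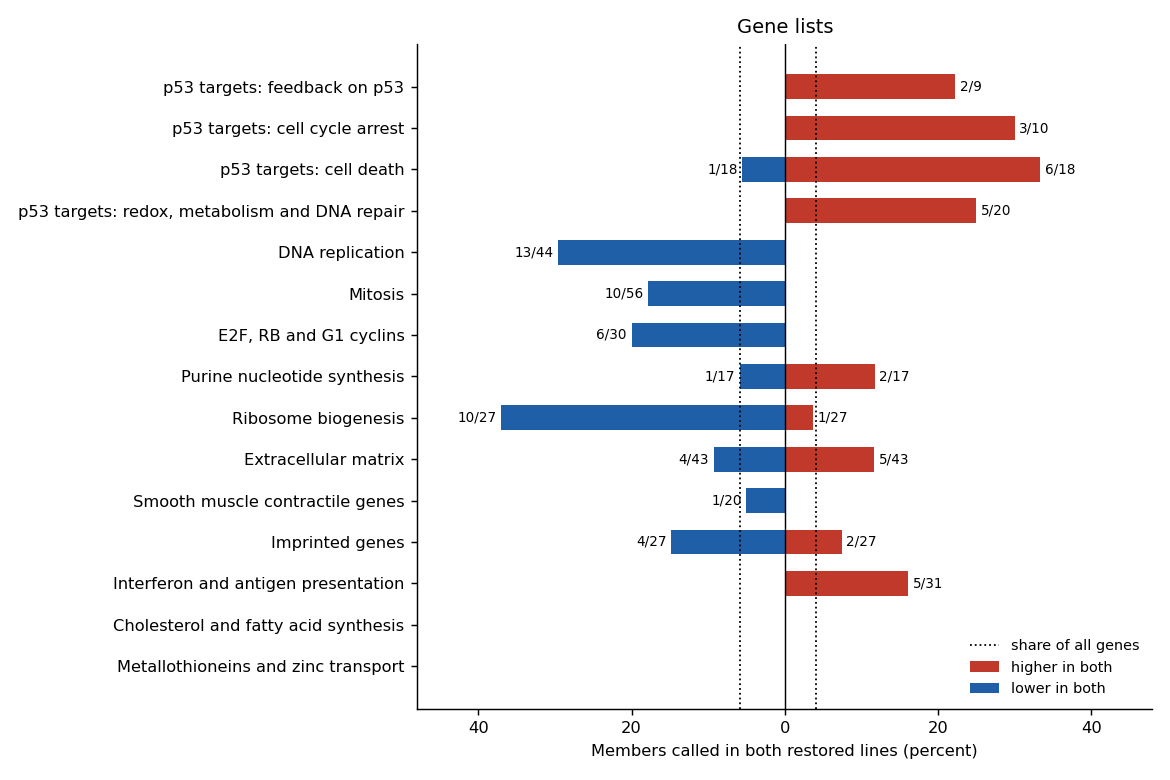
Percent of the measured members of each gene list called higher (right, red) or lower (left, blue) in both restored lines, with counts beside the bars; dotted lines mark the share of all genes, 4.05% higher and 5.90% lower. The longest bars to the left are those of ribosome biogenesis, replication, the E2F group and mitosis. To the right they are those of the p53 target groups, followed by the interferon genes. In tI-3 alone the share of mitosis genes that were lower, 17.9%, was close to the 16.5% of all genes.

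Purine synthesis, the pathway of the IMPDH transgene, had 2 of 17 genes higher (11.8%, beside 4.05% of all genes) and 1 lower (5.88%, beside 5.90%) in both lines, with a median of -0.04, and 0 of either by the rank product test. Adssl1, the muscle-type adenylosuccinate synthase, rose by 1.27 ± 0.17 from a mean of 4.64 in Con-3, and Prps1, which makes the ribose phosphate donor, fell by 0.67. Xdh, xanthine dehydrogenase, had 0.61 in Ind-8 and 1.75 in tI-3, and its call ended without Con-3 replicate 1 or 3 or Ind-8 replicate 1 or 2 (1.07, 1.17, 1.13 and 1.14), with the hybridization block or within levels (1.18 in both) and with arrays weighted equally (1.06). Metallothionein and zinc transport genes gave 0 shared calls by limma among 13, 1 fall at an unadjusted p under 0.05 and 0 by the rank product test, with 2 higher and 2 lower in tI-3 (15.4% each, beside 10.6% and 16.5% of all genes). Zinc was given to all lines.

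Matrix genes gave 5 rises (11.6%, beside 4.05% of all genes) and 4 falls (9.30%, beside 5.90%) among 43, and 1 and 3 by the rank product test. With the shared falls included 24 were lower in tI-3 (55.8%, beside 16.5% of all genes) and 5 in Ind-8 (11.6%, beside 10.5%). With the shared rises included 6 were higher in tI-3 (14.0%, beside 10.6% of all genes) and 10 in Ind-8 (23.3%, beside 11.6%). Loxl2, a cross-linking oxidase, read 5.64, 6.13 and 6.30 in Con-3, 4.15, 4.05 and 4.49 in Ind-8, and 4.30 and 4.29 in tI-3, a fall of -1.76 ± 0.15. Its restored mean lay under the dim limit, so that background bounds this change. Postn, periostin, and Timp3, a protease inhibitor, fell as well, with changes of -1.60 and -1.16. Mmp3, stromelysin, had 0.73 in Ind-8 and 2.13 in tI-3, its arrays overlapped those of Con-3, and its call ended without Con-3 replicate 2 or 3 or Ind-8 replicate 1 or 2 (1.32, 1.37, 1.42 and 1.34), with the hybridization block or within levels (1.46 in both), with arrays weighted equally (1.29) and after either rescaling of the arrays (1.41 and 1.48). Sparc, one of the members with the highest probe levels, had 0.14 in Ind-8 and -0.97 in tI-3, and Col1a2 differed by 0.11 ± 0.19. The count of rises was 3 without Con-3 replicate 3, Ind-8 replicate 1 or 2, or either tI-3 array, 2 without Con-3 replicate 2, and 1 with the hybridization block. Smooth muscle contractile genes had a single shared fall among 20, beside 5.90% of all genes, and 0 by the rank product test. It was Myocd, the coactivator of that programme, at -0.64 to a level near the dim limit, and it was lost without Con-3 replicate 1 (-0.51), Ind-8 replicate 1 or 2 (-0.64 and -0.61) or tI-3 replicate 2 (-0.54), and with the hybridization block or within levels (-0.63 in both). Acta2 and Cnn2 had -0.02 and 0.08 in Ind-8 against -0.89 and -1.03 in tI-3, differences that passed the test (adjusted p = 2.9e-04 and 1.3e-04). Cholesterol and fatty acid synthesis gave 0 shared calls by limma among 26, 3 falls at an unadjusted p under 0.05 and 0 by the rank product test, with 2 genes higher in Ind-8 (7.69%, beside 11.6% of all genes) and 15 lower in tI-3 (57.7%, beside 16.5%).

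Imprinted genes held 2 rises (7.41%, beside 4.05% of all genes) and 4 falls (14.8%, beside 5.90%) among 27, and 0 and 2 by the rank product test. Besides Ndn, the amino acid transporter gene Slc38a4 read 9.34, 9.07 and 9.21 in Con-3, 8.42, 8.44 and 8.46 in Ind-8, and 4.85 and 4.41 in tI-3. It was lower in both but on separate scales, -0.77 in Ind-8 and -4.58 in tI-3, and its call ended with arrays weighted equally (-2.29). Peg3 and Plagl1, zinc finger genes expressed from the paternal allele, had changes of -0.88 and -0.56. Sgce, a sarcoglycan, rose by 1.18 ± 0.13 and Igf2r, the clearance receptor for Igf2, by 1.17 ± 0.10. Gnas, Grb10 and Snrpn, the members with the highest probe levels among those not called, differed by 0.18, -0.19 and 0.17. No common direction ran through the list, and without Con-3 replicate 3 or with the hybridization block the counts were 2 and 3. Ndn and Slc38a4 kept their calls in both settings, so the call lost in each was that of Peg3 or Plagl1.

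Of 31 interferon-stimulated and antigen presentation genes, 5 were higher (16.1%, beside 4.05% of all genes) and 0 lower in both lines by limma, with a median of 0.14, and 0 of either by the rank product test. The higher ones included Tapbp, B2m, Tap2 and the RNA sensor gene Ddx58. Tapbp, tapasin of the peptide-loading complex, averaged 8.04 ± 0.04 (SD, n = 3) in Con-3 and read 8.98, 9.21 and 9.04 in Ind-8, and 9.06 and 9.05 in tI-3. B2m, the light chain of class I molecules, read 11.77, 11.51 and 11.45, then 12.56, 12.59 and 12.26, then 12.67 and 12.53. Restored arrays were higher without exception and the restored lines lay close together, with differences of 0.02 and -0.13. Tapbp rose by 1.02 ± 0.08 (adjusted p = 2.3e-05), B2m by 0.96 ± 0.11 and Tap2, the peptide transporter subunit, by 0.63 ± 0.10. The heavy chain gene H2-K1 differed by 0.07 ± 0.09, and Ifit2, an interferon-induced gene, had 0.10 in Ind-8 and 0.57 in tI-3. The count was 4 without Con-3 replicate 3, 4 with the hybridization block and 3 within levels.

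Some shared changes reached one level in both lines. Of the 147 genes with a rise of at least 1, the 95% interval of the difference between Ind-8 and tI-3 lay within -0.5 to 0.5 for 14, the difference passed the test for 73 and neither held for 60. Of those 73, Ind-8 had the larger change in 47 and tI-3 in 26. Among the 102 falls of at least 1 the counts were 16, 60 and 26, and there tI-3 had the larger change in 55 and Ind-8 in 5. Where the lines differed by test, rises were thus more often larger in Ind-8 and falls in tI-3. Both mean a higher level in Ind-8. Over all genes 2656 (17.1%) were higher and 2278 (14.6%) lower in Ind-8 than in tI-3. Against Con-3, 16.5% of all genes were lower in tI-3 and 10.5% in Ind-8. The hybridization controls were low in all Ind-8 arrays and high in all tI-3 arrays, and their bearing on these counts was not tested.

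Besides Tapbp and Nbea, the closest rises were Ezr, Mtmr11, Tec and Slc27a1. Ezr, ezrin, which ties actin to the membrane, read 10.12, 10.12 and 9.83 in Con-3, 11.48, 11.63 and 11.49 in Ind-8, and 11.55 and 11.60 in tI-3. It rose by 1.53 ± 0.09 (adjusted p = 4.5e-06), with a difference between the lines of -0.04 and an interval of -0.29 to 0.22. Mtmr11, of the myotubularin family, Tec, a non-receptor tyrosine kinase, and Slc27a1, a fatty acid transporter, rose by 1.00, 1.34 and 1.48. The interval of Slc27a1 reached -0.53 and so left the margin. The closest falls were Pdgfb, Pmaip1, Adm, Mthfd2, Diaph3 and Atp10a. The interval of Pmaip1 left the margin on both sides, and its restored levels lay under the dim limit. Pdgfb, a growth factor for fibroblasts, read 6.91, 7.04 and 6.93 in Con-3, 5.93, 5.74 and 5.86 in Ind-8, and 5.79 and 5.91 in tI-3, so that the restored lines overlapped each other and lay apart from Con-3. It changed by -1.11, the vasodilator peptide gene Adm by -1.43, the mitochondrial folate enzyme Mthfd2 by -1.03, the formin Diaph3 by -1.59 and the phospholipid flippase Atp10a by -1.04.

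Positions along the chromosomes were examined after the data had been seen. Among 11953 placed genes above the dim limit, 5.21% were higher and 7.53% lower in both lines. The largest shares of falls were 15.7% on chromosome 4, 13.1% on chromosome 10, 12.99% on chromosome X, 12.69% on chromosome 14 and 12.41% on chromosome 19, and the share of rises was 15.1% on chromosome 16 and 11.9% on chromosome 3. Without Con-3 replicate 3, when 3.69% of all placed genes were higher and 5.71% lower, chromosome 18 had the largest share of falls, 11.93%, followed by chromosomes 4, X, 14, 19 and 10 with 11.58%, 11.3%, 10.88%, 10.57% and 8.98%. With the hybridization block, when 2.995% were higher and 4.058% lower, chromosome 14 led with 10.1%, followed by chromosomes 19, X, 4, 10 and 18 with 8.736%, 8.475%, 7.457%, 7.427% and 7.368%. The order of chromosomes by falls thus changed with the setting. The shares of rises on chromosomes 16 and 3 were 10.75% and 7.37% without that array and 9.14% and 5.216% with the block. The run of 30 neighbouring genes with the lowest median lay on chromosome 14 between Tbc1d4 and Tm9sf2, at -0.81 (-0.57 in Ind-8 and -1.10 in tI-3), and 18 of its 30 genes were lower in both lines. The next lay on chromosome 18 between Ss18 and Iws1, at -0.59 with 15 of 30 lower, also 15 without Con-3 replicate 3 and 12 with the hybridization block. The highest median, 0.39, belonged to a run on chromosome 16 between Cblb and Nrip1, with 6 of 30 higher, 4 without Con-3 replicate 3 and 3 with the hybridization block. The chromosome 14 run had a median of -0.88 without Con-3 replicate 3 and -0.79 with the hybridization block, with 18 falls in both cases. DNA was not measured.

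**Figure D5:**
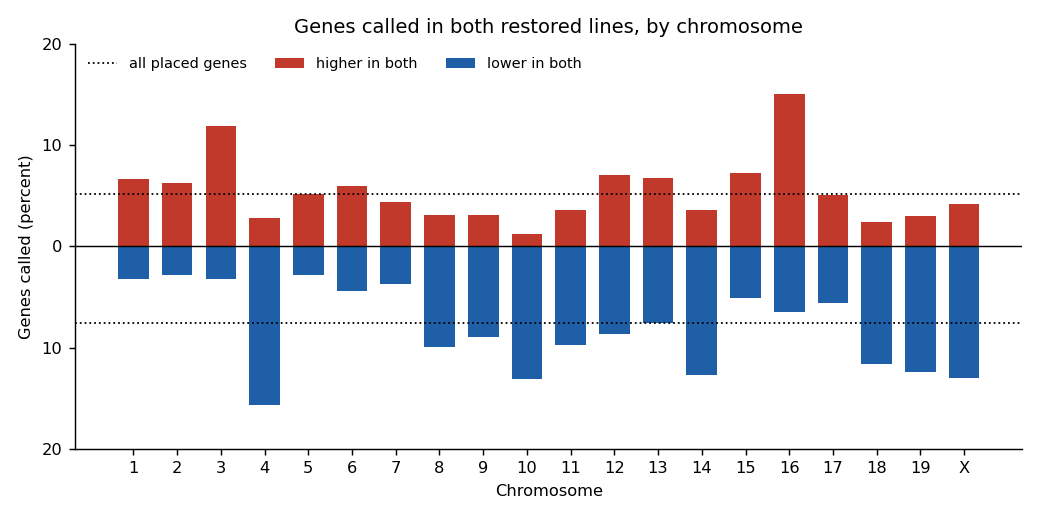
Percent of placed genes above the dim limit that were called higher (up, red) or lower (down, blue) in both restored lines, by chromosome, with dotted lines at 5.21% and 7.53% for all placed genes. In this fit of all arrays without a block chromosome 4 has the largest share of falls, 15.7%, a place it lost in the other settings, and chromosome 16 the largest share of rises, 15.1%.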

How the data were processed

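mRNA was measured on 8 Affymetrix mouse arrays. The authors deposited log2 values, computed by RMA over probes regrouped by RefSeq transcript, and no further normalization was applied. Of 22587 deposited sets, 64 controls were left out, and sets with identical values in all arrays were merged into 18172 profiles. Names came from RefSeq genes of GRCm38.p6 and, for 41 sets, from the study's supplement; a gene is shown by its profile with the highest mean. A cell-means model of the 3 lines was fitted with limma 3.58.1 in R 4.3.3, and p-values were adjusted by Benjamini-Hochberg over all profiles in each contrast. Restored lines were weighted equally. A 95% interval of Ind-8 minus tI-3 within -0.5 to 0.5 counts as a common level. Summaries, promoter searches and figures used Python 3.11.15, numpy 2.4.6, pandas 2.3.3, scipy 1.17.1 and matplotlib 3.10.9. The fit and the rank product code were tested on simulated data. An array has no sequencing depth, and the number of arrays limits the precision.

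Named genes were taken by rule: 5 genes that check the labels; the 12 rises and 12 falls with the largest change in the line where it is smaller; up to 4 called and 3 uncalled members of each list; the 6 shared changes of at least 1 in each direction closest between the lines; and 3 genes in each direction with opposite calls. Bax, Fas, Phlda3, Sco2, Cdk1, Mad2l1, Taf1b, Ddx58, Peg3, Plagl1, Fn1, Twist1, Pdgfrb and Parp12 fall outside it and were chosen after their values were seen. There were 15 pathway lists, 4 of them of p53 targets, and 6 lists of cell type markers. The members and lists were chosen with earlier results of these data known. Alternatives were equal weight per array, a block by replicate number or by hybridization control level, other variance priors, filters and scalings, stricter thresholds, the rank product test (100 permutations, percentage of false positives under 0.05) and leaving out each array in turn. The view along chromosomes was added after seeing the data. Promoters were matched by symbol, for 12334 of 15572 genes. Results of 2 named genes are not reported here.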

Additional observations from a re-analysis of the deposited data

Results flagged for a closer look

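The genes below are named genes whose differences from Con-3 were unequal in Ind-8 and tI-3 by the limma test of Ind-8 minus tI-3, at an adjusted p under 0.05. Every value is that difference on the log2 scale, so a positive value means a higher level in Ind-8.

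The p53 targets with a shared rise given here were all higher in Ind-8. The difference was 2.22 for Cdkn1a, 2.37 for Eda2r, 1.46 for Ephx1, 1.35 for Trp53inp1 and 1.28 for Mdm2. It was 1.24 for Ccng1, 1.40 for Cpt1c, 1.17 for Ak1, 0.82 for Zmat3, 0.82 for Psrc1 and 0.41 for Gtse1. These 11 genes rose in both lines, with tI-3 between Con-3 and Ind-8.

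Among the other leading rises, Prkd1 was higher in Ind-8 by 0.84 and Runx1t1 by 0.34, whereas Fabp4 (-1.38), Ica1 (-1.26) and H60a (-1.64) were higher in tI-3. Leading falls went further in tI-3 for Gjb2 (1.24), Cth (1.01) and Meox1 (0.99). The imprinted gene Slc38a4 had the widest gap of the genes given here, 3.81.

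Among the named cell cycle genes with a shared fall, Rpa2 (-0.37) and Birc5 (-0.67) fell further in Ind-8. Those without a shared call that were lower in Ind-8 included Cdc25c (-0.87), which is also on the p53 arrest list, Rrm1 (-0.49), Ube2c (-0.37) and Anln (-0.36). Xdh (-1.14), Mmp3 (-1.40) and the imprinted gene Sgce (-0.57) rose further in tI-3, Igf2r (0.58) rose further in Ind-8 and Timp3 (0.54) fell further in tI-3.

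The genes that follow are among the 209 profiles that passed in both lines with opposite signs. Rassf6, a RAS-association domain gene, had 1.20 in Ind-8 and -1.33 in tI-3, a gap of 2.53. The histone gene H2bc4 had 1.12 and -1.45, a gap of 2.57. In the reverse order, Il1rl1, the interleukin 33 receptor, had -0.68 and 1.25, a gap of -1.94. Ss18, a chromatin remodelling subunit, had -0.68 and 0.66, a gap of -1.34, and Lmnb1, lamin B1, had -0.80 and 0.64, a gap of -1.44. What produced these differences was not tested.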

How the results depend on the processing

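Counts of shared rises, of shared falls and of profiles above and below Con-3 in the equal-weight contrast moved by over 1.5 times under some settings. A minimum change of 1 in each line gave 86 and 52 shared calls, and the rank product test 66 and 78. With adjusted p under 0.01 the counts were 316, 507, 923 and 1458. With the hybridization level as a block 394 and 541 profiles were shared, and within levels 339 and 418. Pooling the 5 restored arrays gave 715 and 973 in the contrast; that model changes the weight of the lines and the residual spread at once, and the parts were not separated. A minimum change, the rank product test and fits within levels give no value for that contrast. Leaving out each array, with a lone array assumed to vary like the other lines, gave 400 to 648 shared rises, 679 to 906 shared falls, 1202 to 1585 profiles above and 1708 to 2327 below. The replicate block gave 702, 1047, 1701 and 2478. Residuals of arrays with a common replicate number had r from -0.23 to 0.37. For Ind-8 with Con-3 these were 0.26, 0.02 and 0.37. The values do not settle whether the numbers pair cultures. Quantile normalization again gave 816 and 900 shared calls and centring on medians 623 and 1201, so the balance of rises and falls shifts with the scaling, with falls in excess under both. No change of a named gene with a shared call reversed. Of 76 named genes called, 43 kept the call under each of the 22 settings with named-gene values, which leave out the rank product test, and 64 under all of these but stricter thresholds and the hybridization settings. Slc38a4 lost its call with arrays weighted equally (-2.29), as did E2f7, Xdh and Mmp3. Apart from stricter tests, the cause was not tested. Genes near the dim limit of 4.29 are limited by background.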

Other observations

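Some genes stood far from Con-3 in a single restored line. In tI-3 Actg2, smooth muscle gamma actin, averaged 5.10, against 9.39 in Con-3 and 10.05 in Ind-8, and Col3a1, a fibrillar collagen, averaged 6.38 against 9.07 and 8.80. Both differences between the restored lines passed the limma test (4.95 for Actg2 and 2.42 for Col3a1). Btg2, an antiproliferative p53 target, averaged 6.32 in Con-3, 8.71 in Ind-8 and 7.02 in tI-3, with 2.39 in Ind-8 and 0.70 in tI-3 (adjusted p = 0.088). These genes were chosen after their values were seen.

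Several probe profiles of a gene did not always move alike: of 58 called genes with several profiles, 24 had another profile without the same call. Clone, culture and array processing were not separated by the design, tI-3 had 2 arrays, and the level of the hybridization controls differed between the restored lines. No second clone, zinc-free culture or DNA measurement was available, so the shared differences are those of these clones in zinc.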
